A study of Homo sapiens with 12 samples.

Results

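The histone cluster genes are histone genes named for 4 chromosomal clusters, most but not all of them replication-dependent. They were taken from the deposited expression table as every protein coding row whose name starts with HIST1H, HIST2H, HIST3H or HIST4H, which gave 71 of 58676 genes. The HIST1 cluster on chromosome 6 held 55 of them, HIST2 on chromosome 1 held 12, HIST3 on chromosome 1 held 3 and HIST4 on chromosome 12 held 1. By protein, 6 encode the linker histone H1, 17 encode H2A, 18 encode H2B, 15 encode H3 and 15 encode H4.

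The cells were A549, a long-established line from a human lung carcinoma, kept as a control line (genotype label Control1) and as 2 lines labelled NFE2L1 KO1 and KO2. NFE2L1 is a transcription factor known to raise proteasome genes when proteasome activity is lost. Each line was given vehicle (DMSO) or 200 nM bortezomib, a proteasome inhibitor, for 4 h, and each of the 6 groups has 2 libraries. The labels do not give how the knockouts were made, whether a line is 1 clone, or whether the libraries of a group came from separate cultures, so p-values measure only the spread between these libraries. In 10 libraries the title ends in R1 or R2, while 1 library of each control group has no suffix.

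Replication-dependent histone genes supply the histones that package new DNA, and their mRNAs accumulate in S phase and decay when replication ends. Their transcripts normally end in a short stem-loop in place of a poly(A) tail, and the stem-loop is bound by SLBP, which acts in processing, translation and decay. Some of these genes also give polyadenylated transcripts that run past the stem-loop, so the level read for them depends on how RNA was selected. Nucleosomes hold the core histones H2A, H2B, H3 and H4, while H1 binds the linker DNA between them.

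The stem-loops found in 5 tested members are shown because they mark where the replication-dependent mRNA ends. Of the 7 tested members with annotated bases after the stop codon, HIST1H2BJ and HIST1H3E held no match to the search. Capitals mark the stem-loop of 16 bases, a 6-base stem, a 4-base loop and the returning stem, and lower case marks 5 bases on each side. The sequences are from GENCODE release 29 transcripts, 5′ to 3′, in DNA letters.
HIST1H2BD: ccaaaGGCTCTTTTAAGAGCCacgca
HIST1H2AC: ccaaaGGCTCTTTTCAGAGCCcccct
HIST3H2A: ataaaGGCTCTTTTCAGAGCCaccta
HIST1H4I: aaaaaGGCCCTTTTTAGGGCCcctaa
HIST2H2BE: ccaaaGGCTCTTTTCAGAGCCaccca
The stem starts with GG and the loop with TTT in all 5, because the search asked for this within 150 bases after the stop codon. Of the 71 genes, 36 have annotated bases after the stop codon, and 30 of these held such a stem-loop. The 16 bases shown for HIST1H2AC were found unchanged in 17 of the 30. In 20 of the 30 the annotated transcript runs over 200 bases beyond the stem-loop. HIST1H2AC has 1128 bases beyond it and HIST2H2BE has 1729, against 39 in the HIST1H2BD transcript that holds the stem-loop. The full HIST1H2BD model reaches farther, from 26158146 to 26171349. The models of 33 members hold coding bases only, and HIST1H2BK and HIST1H1C, the members with the highest levels, are among them.

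Promoters are shown for the same reason of shared design, since members of this family are transcribed together. The 250 bases before the start site are printed for 5 of the members described below, from RefSeq on GRCh38.p14, 5′ to 3′ on the gene's strand. Capitals mark matches on either strand to CCAAT, to TATAAA or to ATTTGCAT, the octamer known from H2B promoters.
HIST1H2BK (chr6:27146859-27147108, minus strand): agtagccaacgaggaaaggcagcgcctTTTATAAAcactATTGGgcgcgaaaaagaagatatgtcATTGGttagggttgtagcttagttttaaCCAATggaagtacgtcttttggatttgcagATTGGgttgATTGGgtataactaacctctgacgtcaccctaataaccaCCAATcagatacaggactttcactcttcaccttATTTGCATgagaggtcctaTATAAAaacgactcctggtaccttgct
HIST1H1C (chr6:26056471-26056720, minus strand): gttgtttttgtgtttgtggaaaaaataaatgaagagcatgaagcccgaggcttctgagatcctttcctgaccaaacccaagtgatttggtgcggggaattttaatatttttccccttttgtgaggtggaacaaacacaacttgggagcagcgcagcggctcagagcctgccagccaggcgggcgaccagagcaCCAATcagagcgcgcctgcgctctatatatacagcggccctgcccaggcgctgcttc
HIST1H2BD (chr6:26157871-26158120, plus strand): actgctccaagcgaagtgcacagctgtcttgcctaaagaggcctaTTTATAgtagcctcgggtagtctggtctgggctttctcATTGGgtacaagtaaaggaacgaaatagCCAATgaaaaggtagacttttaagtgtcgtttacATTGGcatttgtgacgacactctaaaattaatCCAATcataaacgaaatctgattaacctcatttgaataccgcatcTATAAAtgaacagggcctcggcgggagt
HIST1H2AC (chr6:26123922-26124171, plus strand): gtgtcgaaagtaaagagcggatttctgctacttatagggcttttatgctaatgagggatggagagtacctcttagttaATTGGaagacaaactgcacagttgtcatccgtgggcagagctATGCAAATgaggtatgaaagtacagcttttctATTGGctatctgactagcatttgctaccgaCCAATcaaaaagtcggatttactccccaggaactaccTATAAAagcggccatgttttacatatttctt
HIST2H2BE (chr1:149886683-149886932, minus strand): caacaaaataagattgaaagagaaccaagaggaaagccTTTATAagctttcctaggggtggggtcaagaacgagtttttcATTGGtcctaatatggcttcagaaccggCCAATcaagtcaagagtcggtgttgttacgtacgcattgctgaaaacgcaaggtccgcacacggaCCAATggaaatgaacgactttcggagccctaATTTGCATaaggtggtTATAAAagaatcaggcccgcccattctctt
RefSeq promoters of 300 bases, from 250 before to 50 after the start, were found for 61 of the 71 genes. CCAAT was in 51 of the 61 (83.6%), against 35.7% of all 27305 promoters. It was in all of the H1, H2A, H2B and H3 promoters matched and in 3 of 13 H4 promoters. TATAAA was in 40 of 61 (65.6%, against 11.95% of all promoters). ATTTGCAT was in 26 of 61 (42.6%, against 1.80%). It was in 14 of 18 H2B and 11 of 14 H2A promoters, in 1 of 10 H3 promoters, and in no H1 or H4 promoter of this window. The windows of 23 members overlap that of another member, as with the divergent HIST2H2BE and HIST2H2AC, so a match can be counted for both. A match is a description of letters and was not tied to binding.

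The libraries held 13211608 to 23819258 reads assigned to genes. The 6 libraries with the suffix R2 stood apart from the others, and mitochondrial genes took 12.3% to 19.3% of their reads against 5.44% to 6.80% in the other 6. In vehicle NFE2L1 had an FPKM of 72.7 and 151 in the control line, 8.45 and 14.8 in KO1 and 18.6 and 33.6 in KO2. A549 markers were present in every library, among them KRT8 at 126 to 703 FPKM. Of 6 markers of blood, endothelial and fibroblast cells, COL1A1 alone passed the filter on low values. PTPRC, CD3E, PECAM1 and VWF were at or under 0.0602 FPKM in every library. The summed FPKM of these 6 markers was 1.56 to 5.57 in vehicle and 6.12 to 23.7 in bortezomib, nearly all of it COL1A1, and its part in the results below was not tested. Among RNAs known to lack a poly(A) tail, 10 table rows were found, and 8 of them, RN7SK, RN7SL1, RMRP and RPPH1, were at 0 in every library. Each of these names is listed under different gene IDs, so a 0 can come from reads that fit several rows, which was not tested. SNORD3A and TERC are not repeated in this way and reached at most 1.04 and 0.394 FPKM in a library. Whether RNA was selected by poly(A) is not given in the sources used here.

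Histone cluster transcripts were scarce. In all 12 libraries together the 71 genes had 12735 reads. Only 11 had a mean FPKM (fragments by length of the gene model and by depth of the library) of at least 1 and were tested, and the other 60 were not. The 11 are 1 H1, 3 H2A, 4 H2B, 2 H3 and 1 H4 gene, and they held 72.4% of the reads. HIST1H2BK alone held 15.4%. The threshold fell between HIST1H3E at a mean FPKM of 1.12 and HIST1H3H at 0.921. Of the 60, 30 had a mean from 0.1 to under 1 and 30 a mean under 0.1. Reads were seen in all 12 libraries for 18 genes. The 9 genes listed at 0 in every library were HIST1H2AA, HIST1H2AD, HIST1H2AE, HIST1H2AK, HIST1H2AM, HIST1H2BA, HIST1H3D, HIST1H4F and HIST2H3PS2. Of these 9, 5 are overlapped by another gene in the annotation, and HIST1H3D, HIST1H2AK and HIST2H3PS2 have no stretch of 100 bases that is not also in another transcript. A 0 for the 5 overlapped genes can therefore come from reads that fit several genes, which was not tested. HIST1H2AA, HIST1H2AE, HIST1H2BA and HIST1H4F have no overlapping gene, and 100% of their 100-base stretches are their own.

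The deposited gene models differ in how much of each transcript they cover. The 21 members with a model of at least 1000 bases had a median of 257 reads over all libraries and a median mean FPKM of 0.304, and none was at 0. The 50 shorter members had a median of 10 reads and a median mean FPKM of 0.108, and all 9 genes at 0 were among them. Of the tested genes 4 had the longer models and 7 the shorter ones.

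**Figure D1:**
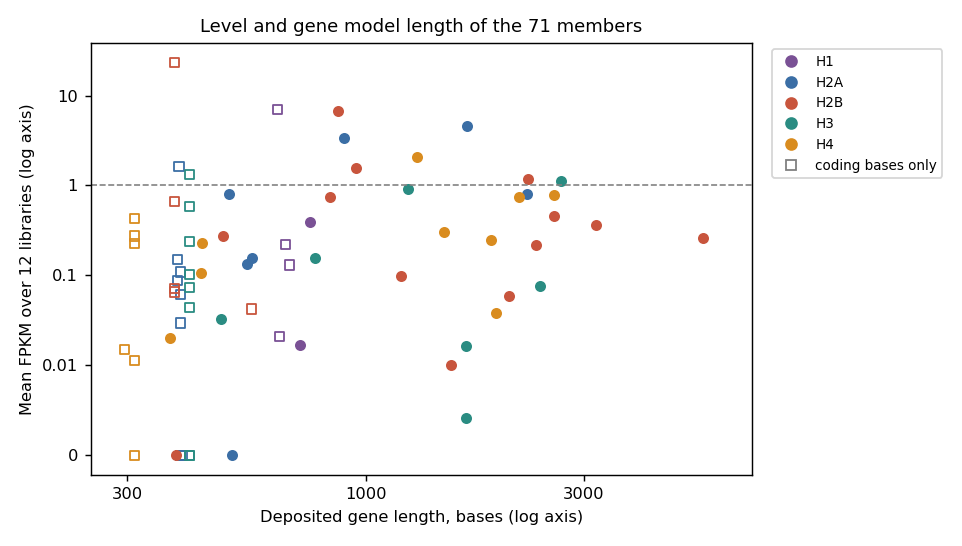
Mean FPKM over the 12 libraries (log axis) against deposited gene length in bases (log axis) for the 71 members, coloured by histone class. Open squares are models of coding bases only, the dashed line is the mean FPKM of 1 needed for testing, and genes at 0 are drawn on the lowest tick. HIST1H2BK (23.5) and HIST1H1C (7.01) stand highest and have coding-only models.

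In each of the 3 lines the share of reads from these genes was lower in bortezomib than in vehicle. Summed over the 71 genes, RPM (reads scaled to 1000000 assigned reads in a library) was 108 in the unsuffixed and 52.1 in the R2 vehicle library of the control line, and 29.1 and 20.5 in the matching bortezomib libraries. In KO1 it was 135 (R1) and 68.8 (R2) in vehicle and 37.2 and 24.4 in bortezomib. In KO2 it was 101 and 62.4 in vehicle and 23.0 and 21.3 in bortezomib. All 6 bortezomib libraries lay below all 6 vehicle libraries, and within a line and suffix 22.8% to 39.4% of the vehicle value was left. The R2 vehicle libraries lay below the other vehicle libraries, and the remaining share was higher in R2 pairs (34.2% to 39.4%) than in the other pairs (22.8% to 27.6%). The 60 genes outside the test, summed, were also lower in every pair, at 25.5% to 41.4% of vehicle. Fewer cells in S phase and less histone RNA per cell cannot be told apart in bulk RNA.

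**Figure D2:**
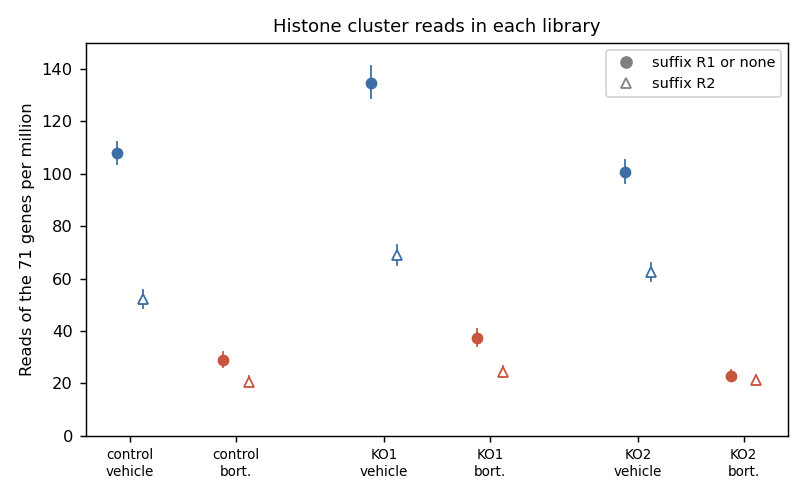
RPM of the 71 genes together in each library, with 95% binomial intervals that cover counting error only. Filled circles are R1 or unsuffixed libraries and open triangles R2, blue is vehicle and red bortezomib. The bortezomib libraries lie at 20.5 to 37.2 and the vehicle libraries at 52.1 to 135.

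By class, the median of the 6 pairs left 25.2% of the vehicle value for H2B and 25.9% for H2A. It left 33.5% for H1, 35.3% for H4 and 53.3% for H3. H3 ranged from 31.9% to 65.4% over the pairs and H2B from 20.1% to 42.1%, so these ranges overlap. These are sums of reads, so genes with many reads weigh most, as HIST1H1C (1031 reads in all) does in H1. Among the H3 genes with the highest means the median left was 73.0% for HIST1H3E (680 reads). It was 51.6% for HIST1H3B (127 reads) and 8.5% for HIST1H3H (257 reads).

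No member passed the test without a replicate term (limma on log2(FPKM + 1), Benjamini-Hochberg adjusted p under 0.05 over 12194 genes). This held in each of the 3 bortezomib comparisons, where 0.238%, 0.082% and 0.148% of all genes tested were called lower, given for control, KO1 and KO2 in turn. The smallest adjusted p of a member was 0.0866, and an unadjusted p under 0.05 was seen for 5, 3 and 6 of the 11. With the title suffix as a block, 7, 6 and 8 of the 11 were called, all lower, against 16.4%, 13.8% and 14.4% of all genes. With the block but no filter on low FPKM, 4, 5 and 2 of 62 members were called. Of all 32192 genes fitted in that setting, 1163, 934 and 913 were called lower. Of the 11, HIST1H2AC stayed called there in each line and HIST1H2BD in the control line and KO1, while HIST1H1C, HIST1H2BJ, HIST1H2BK and HIST2H2BE were called in none (limma adjusted p 0.0531 to 0.191). With voom, another limma method, on the reads recovered from FPKM, no member was called without the block (4, 3 and 5 at an unadjusted p under 0.05), and 7, 6 and 7 were called with it, where HIST1H2BJ in KO1 was not among them. Of all 12194 genes, voom with the block called 2316, 2016 and 2122 lower. The pairing behind the block is given with the processing. "Fell" below refers to the fit with the block.

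The block could not alter a bortezomib fold change on log2(FPKM + 1), and so says nothing of its direction. Within a line each suffix has 1 vehicle and 1 bortezomib library. All 11 members had a fold change below 0 in each line, with a median log2 fold change of -1.09 (control), -0.98 (KO1) and -1.05 (KO2), while the median of all genes tested was between -0.02 and 0.00. These medians are over tested members only and moved with the setting. With 1 library left out they ranged from -1.51 to -0.66 (control), from -1.20 to -0.37 (KO1) and from -1.62 to -0.78 (KO2). The values nearest 0 in the control line and KO1 were those without the unsuffixed control vehicle library and without the R1 library of KO1 vehicle. Without the R2 library of KO1 bortezomib the KO1 median was -0.59, and without the R2 library of KO2 vehicle the KO2 median was -1.62. In KO2 a pseudocount of 0.1 gave -1.74 and voom -1.79. Of the 11, 5 had a mean under 1 in bortezomib and so passed the filter through vehicle, which fixes part of their direction. These were HIST1H2BJ, HIST1H3B, HIST1H3E, HIST1H4I and HIST2H2BE. The medians of -1.09, -0.98 and -1.05 are the values of HIST2H2BE (control), HIST1H4I (KO1) and HIST1H3B (KO2), all among these 5. In total 6 members fell in all 3 lines, namely HIST1H1C, HIST1H2AC, HIST1H2BD, HIST1H2BJ, HIST1H2BK and HIST2H2BE. In 4 of the 11 every bortezomib library was below every vehicle library (HIST1H2AC, HIST1H2BD, HIST1H2BJ and HIST2H2BE), which 5.4% of all genes tested showed. Bortezomib was below vehicle in all 6 pairs for 8 of the 11, against 23.8% of all genes tested.

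In the values that follow, the R1 or unsuffixed library is given first and the R2 library second. HIST1H1C (ENSG00000187837, chromosome 6, 26055787 to 26056428, minus strand) encodes a somatic linker histone and was the only H1 gene tested. Its FPKM in vehicle was 19.6 and 5.997 (control line), 16.4 and 3.52 (KO1) and 15.5 and 5.09 (KO2). In bortezomib it was 3.65 and 2.23, 5.07 and 1.73, and 3.18 and 2.12. Each bortezomib library was below its vehicle partner. However, the R1 library of KO1 bortezomib and the unsuffixed library of control bortezomib lay within the range of the R2 vehicle libraries. The treatments therefore overlapped across suffixes. HIST1H1C fell in each line, with log2 fold changes of -1.63 (control), -1.12 (KO1) and -1.47 (KO2) (SE 0.33 in each; limma adjusted p 0.00624, 0.0338 and 0.0122 with the block, 0.426 to 0.751 without). Without the R1 library of KO1 vehicle the log2 fold change of HIST1H1C in KO1 was -0.15, and without the unsuffixed control vehicle library that of the control line was -0.85.

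HIST1H2AC (chromosome 6, 26124145 to 26139116, plus strand; 2 exons) encodes a core H2A, and its stem-loop is the second one printed above. In vehicle its FPKM was 10.2 and 4.81 (control line), 11.96 and 4.94 (KO1) and 9.57 and 6.79 (KO2). In bortezomib it was 1.32 and 1.05, 2.36 and 0.699, and 1.10 and 0.760. The treatments did not overlap, and bortezomib left 11.2% to 21.9% of vehicle over the 6 pairs. HIST1H2AC fell, with log2 fold changes of -1.89, -1.88 and -2.24 for control, KO1 and KO2 (SE 0.25; limma adjusted p 0.000817, 0.00112 and 0.000441 with the block, 0.0866 to 0.156 without).

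The other tested H2A genes had smaller fold changes. HIST3H2A (chromosome 1, 228456979 to 228457873, minus strand) had an FPKM of 3.99 and 5.14 in control vehicle, 4.11 and 4.33 in KO1 vehicle and 3.47 and 2.90 in KO2 vehicle. In bortezomib it had 3.65 and 1.78, 4.57 and 2.43, and 1.77 and 2.88. The treatments overlapped, and the R1 library of KO1 was higher in bortezomib than in vehicle. The log2 fold changes of HIST3H2A were -0.62, -0.26 and -0.35 (SE 0.29), and none passed with the block (limma adjusted p 0.134 to 0.548).

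HIST2H2AC (chromosome 1, 149886975 to 149887364, plus strand) shares stretches of 100 bases with HIST2H2AA3 and HIST2H2AA4, and 82.8% of its stretches are its own, so its reads are uncertain. Its FPKM was 1.94 and 1.51 in control vehicle, 2.59 and 1.24 in KO1 vehicle and 3.33 and 1.198 in KO2 vehicle. It was 1.82 and 0.408, 2.52 and 1.09, and 1.44 and 0.580 in bortezomib. The 2 treatments overlapped, although each bortezomib library was below its partner. HIST2H2AC fell in KO2 by 0.65 (SE 0.21; limma adjusted p 0.0436 with the block, 0.808 without). Its log2 fold changes of -0.45 in the control line and -0.06 in KO1 did not pass.

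HIST1H2BK (chromosome 6, 27146418 to 27146798, minus strand) encodes a core H2B and had the highest level of any member. Its FPKM was 49.3 and 14.6 in control vehicle, 77.0 and 19.4 in KO1 vehicle and 42.9 and 14.6 in KO2 vehicle. In bortezomib it was 16.2 and 8.50, 14.9 and 7.93, and 10.1 and 6.18. The R1 and unsuffixed vehicle libraries stood far above the rest, while the R2 vehicle libraries overlapped with bortezomib libraries of the other suffix. HIST1H2BK fell, with log2 fold changes of -1.13, -1.74 and -1.55 (SE 0.31; limma adjusted p 0.0217, 0.00407 and 0.00711 with the block, 0.536 to 0.671 without). Without the unsuffixed control vehicle library the log2 fold change of HIST1H2BK in the control line was -0.29, and without R1 of KO1 vehicle it was -0.77 in KO1. Of its 100-base stretches 71.6% are its own and the rest are also in H2BFS, so part of its reads is uncertain.

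HIST1H2BD (chromosome 6, 26158146 to 26171349, plus strand; 2 exons) had the largest fold changes of the tested members in the control line and in KO1 on the log2(FPKM + 1) scale. With a pseudocount of 0.1 HIST1H3B exceeded it in the control line (-3.01 against -2.83). Its vehicle FPKM was 16.7 and 3.93 (control line), 22.8 and 7.54 (KO1) and 14.2 and 5.48 (KO2). Its bortezomib FPKM was 1.80 and 0.610, 2.69 and 1.46, and 1.64 and 1.51. No bortezomib library reached a vehicle library. HIST1H2BD fell, with log2 fold changes of -2.14, -2.24 and -1.95 (SE 0.33; limma adjusted p 0.00189, 0.00197 and 0.0036 with the block, 0.215 to 0.351 without). A pseudogene, LARP1P1, overlaps it on its strand and AL353759.1 on the other, and whether counting used strand is not given in the sources used here.

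HIST1H2BJ (chromosome 6, 27125897 to 27132750, minus strand) had a vehicle FPKM of 2.65 and 1.46 (control line), 3.64 and 1.53 (KO1) and 2.54 and 1.91 (KO2). In bortezomib it had 0.823 and 0.559, 1.43 and 0.669, and 0.591 and 0.810. The treatments were separated narrowly, by 1.43 against 1.46. HIST1H2BJ fell, with log2 fold changes of -0.83, -0.77 and -0.92 (SE 0.24; limma adjusted p 0.0282, 0.0435 and 0.0232 with the block, 0.37 to 0.536 without).

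HIST2H2BE (chromosome 1, 149842204 to 149886652, minus strand) lies back to back with HIST2H2AC. Its vehicle FPKM was 2.81 and 1.11, 2.58 and 2.41, and 1.56 and 1.36, with the lines in the same order. Its bortezomib FPKM was 0.315 and 0.352, 0.703 and 0.445, and 0.226 and 0.340. The bortezomib libraries were all lower than the vehicle libraries, and HIST2H2BE fell, with log2 fold changes of -1.09, -1.15 and -0.94 (SE 0.23; limma adjusted p 0.00722, 0.00665 and 0.0173 with the block, 0.144 to 0.28 without). The span deposited for it holds other histone genes on both strands, so its assignment of reads is uncertain.

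**Figure D3:**
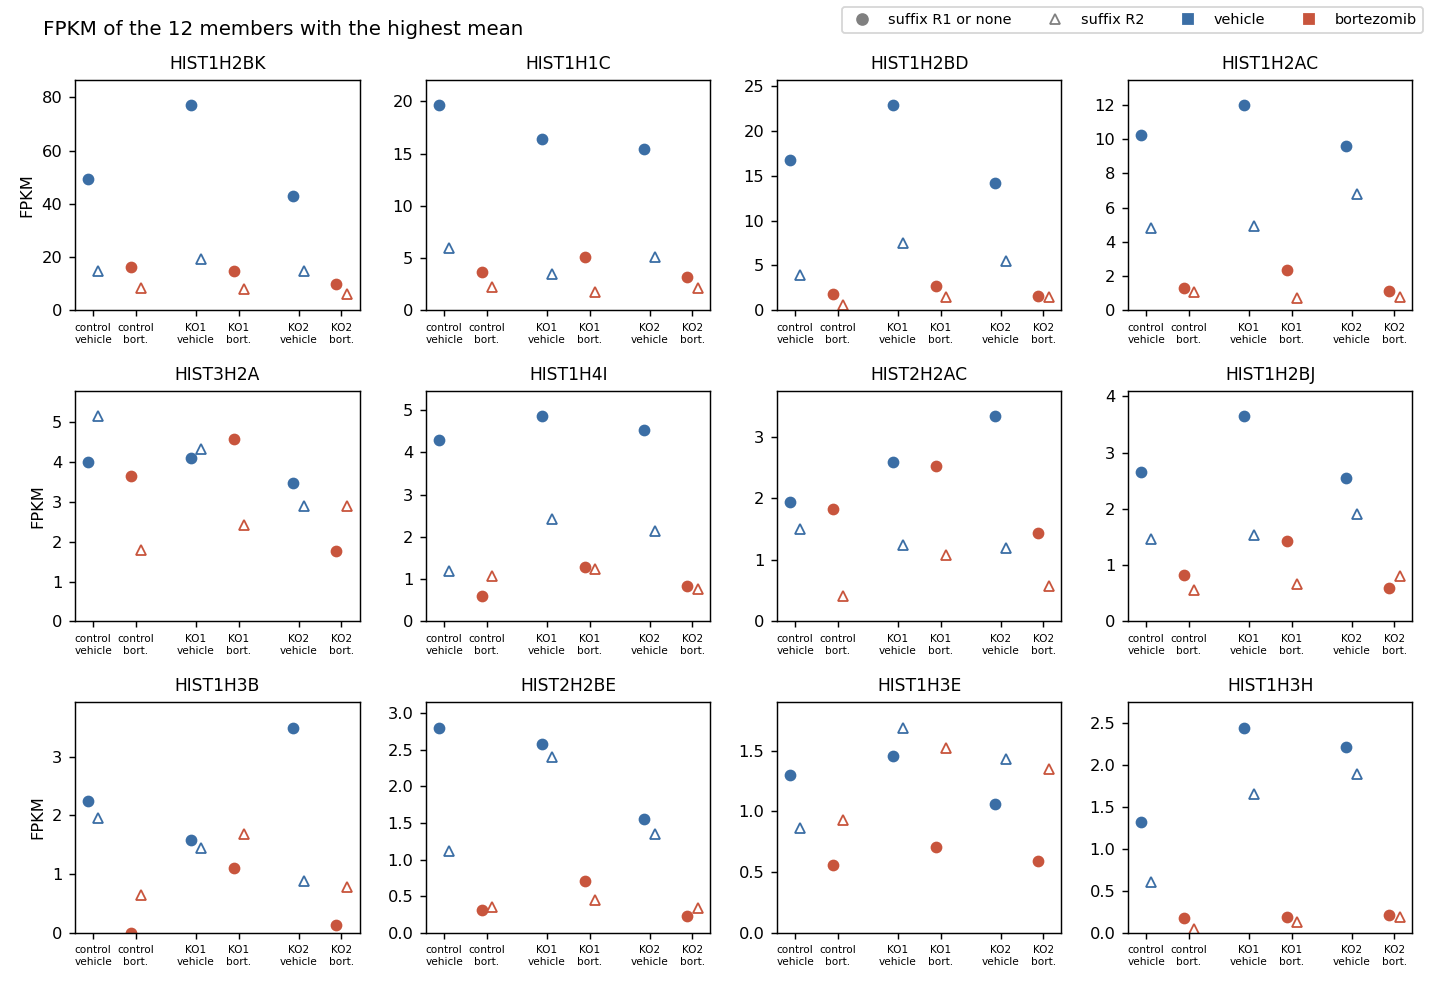
FPKM in each library for the 12 members with the highest mean (vertical axes start at 0 and differ between panels). Circles are R1 or unsuffixed and triangles R2 libraries, blue vehicle and red bortezomib. HIST1H2AC, HIST1H2BD, HIST1H2BJ, HIST2H2BE and HIST1H3H show no overlap of treatments. HIST1H2BK, HIST1H1C, HIST3H2A, HIST1H4I, HIST2H2AC, HIST1H3B and HIST1H3E show an overlap.

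The H3 genes tested were HIST1H3B and HIST1H3E. HIST1H3B (chromosome 6, 26031650 to 26032060, minus strand), with 127 reads in all, had an FPKM of 2.25 and 1.95 in control vehicle and 0 and 0.646 in control bortezomib. In KO1 it had 1.58 and 1.44 in vehicle and 1.10 and 1.68 in bortezomib, and in KO2 3.501 and 0.884 in vehicle and 0.124 and 0.771 in bortezomib. The control line showed no overlap of treatments and KO1 did. HIST1H3B fell in the control line by 1.27 (SE 0.40; limma adjusted p 0.0381 with the block, 0.245 without), and its log2 fold changes of -0.08 in KO1 and -1.05 in KO2 did not pass (adjusted p 0.899 and 0.0841). The difference between the knockout lines and the control line in this response was 0.71 on the log2 scale (SE 0.49; limma adjusted p 0.669 with the block).

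HIST1H3E (chromosome 6, 26224199 to 26227473, plus strand) was the least changed of the 11 over the 3 lines together on log2(FPKM + 1). By the median share of vehicle left in the 6 pairs, HIST3H2A was slightly less changed (73.8% against 73.0%). The FPKM of HIST1H3E was 1.30 and 0.858 in control vehicle, 1.45 and 1.69 in KO1 vehicle and 1.06 and 1.43 in KO2 vehicle. In bortezomib it had 0.557 and 0.932, 0.706 and 1.52, and 0.591 and 1.35. The R2 libraries were close between treatments in each line, and the R1 and unsuffixed libraries were lower in bortezomib. Its log2 fold changes were -0.25, -0.31 and -0.21 (SE 0.21; limma adjusted p 0.302 to 0.492 with the block).

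HIST1H4I (chromosome 6, 27138588 to 27139881, plus strand) was the only H4 gene tested. In vehicle it had an FPKM of 4.28 and 1.198 (control line), 4.84 and 2.41 (KO1) and 4.52 and 2.13 (KO2). In bortezomib it had 0.604 and 1.07, 1.29 and 1.23, and 0.829 and 0.770. Only the R2 vehicle library of the control line lay among the bortezomib values. HIST1H4I fell in KO2 by 1.21 (SE 0.35; limma adjusted p 0.034 with the block, 0.384 without), and its log2 fold changes of -0.90 and -0.98 in the control line and KO1 did not pass (adjusted p 0.0784 and 0.0663).

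**Figure D4:**
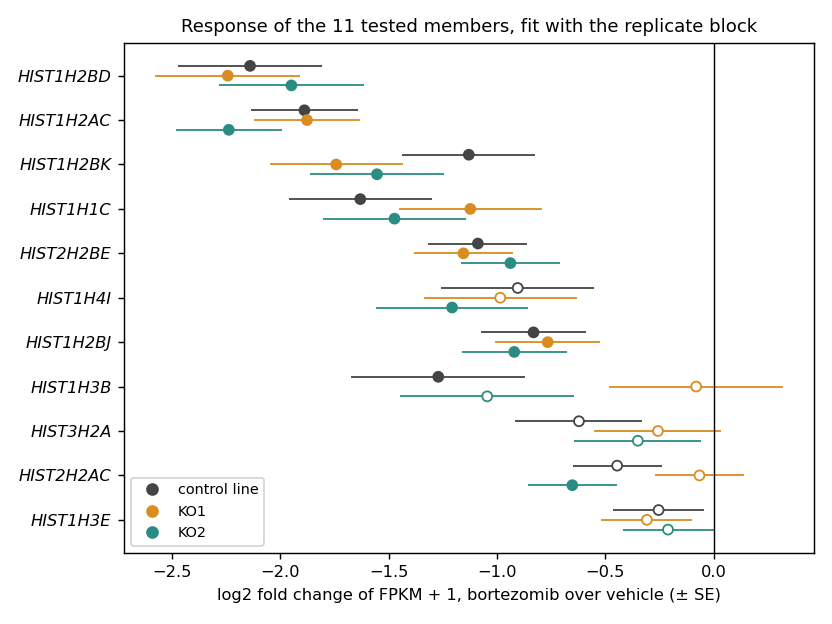
Log2 fold change of FPKM + 1, bortezomib over vehicle, for the 11 tested members in the control line, KO1 and KO2, from the fit with the replicate block. Bars are 1 SE and filled points passed the test. HIST1H2BD (-2.14, -2.24 and -1.95) and HIST1H2AC (-1.89, -1.88 and -2.24) lie farthest from 0.

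Among the members outside the test, HIST1H3H (chromosome 6, 27810064 to 27811300, plus strand) had the highest mean. Its FPKM was 1.32 and 0.605 in control vehicle, 2.45 and 1.65 in KO1 vehicle and 2.21 and 1.89 in KO2 vehicle. In bortezomib it was 0.172 and 0.0429, 0.184 and 0.128, and 0.206 and 0.183. The treatments were far apart, with 237 reads in the vehicle libraries and 20 in the bortezomib libraries, and 7.09% to 13.0% of vehicle was left in the 6 pairs. HIST1H3H was tested where mitochondrial genes were left out and the rest rescaled, and there it was the 1 member called without the block, in KO2 (log2 fold change -1.43, limma adjusted p 0.0483). It reached the filter in that setting through vehicle, which fixes part of its direction. With the block and no filter HIST1H3H was called in each line (limma adjusted p 0.0443 for control, 0.0138 for KO1 and 0.0138 for KO2). Other members without overlap of treatments were HIST1H2AG, HIST1H2BF, HIST1H4H, HIST2H4A and HIST3H2BB, which makes 6 of 60, against 0.965% of all genes below the filter that had any read. Of the 30 members with a mean from 0.1 to under 1 there were 5, against 2.15% of all genes at these levels. HIST1H2BF rests on 27 reads in all and separates by 0.0757 against 0.0776 FPKM, and HIST2H4A has only 5.13% of its 100-base stretches to itself, so its reads are uncertain. HIST1H2AG, an H2A gene, had 362 reads in vehicle and 45 in bortezomib. Of the 60 genes 15 had at least 50 reads in all, and each of the 15 had a smaller share of the reads in bortezomib when the libraries of a treatment were pooled. HIST4H4, the single gene of its cluster, ranged from 0.554 to 1.86 FPKM in vehicle and from 0.165 to 0.822 in bortezomib, so its treatments overlapped.

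The knockout lines were compared with the control line in vehicle. No member was called in KO1 or KO2, without or with the block, where 0.213% and 0.23% of all genes were called either way without it and 5.95% and 4.91% with it. No member reached an unadjusted p under 0.05 in limma in either fit, and voom with the block gave 2 in KO1 and 0 in KO2 and called none. The smallest adjusted p with the block was 0.251 in KO1, for HIST1H2BD, and 0.556 in KO2. In KO1 the largest rise without the block was that of HIST1H2BD (0.61) and the largest fall that of HIST1H1C (-0.44), both as log2 fold changes that did not pass. In KO2 they were those of HIST1H4I (0.29) and HIST3H2A (-0.41). Within a vehicle group the R2 library also differed from the other, by a median log2 difference over the 11 members of -0.85 for control, -0.78 for KO1 and -0.82 for KO2. Over all genes tested this median was also below 0, at -0.34, -0.30 and -0.16. With the block, KO and control libraries are tied mainly through R2, because R1 occurs only in KO groups.

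The response to bortezomib was also compared between the knockout lines, as the mean of both, and the control line. No member was called without or with the block, where 0% of all genes were called in either fit, and none had an unadjusted p under 0.05. The largest differences were those of HIST1H3B (0.71) and HIST1H2BK (-0.52), and neither passed. A p above the threshold does not show that the lines respond alike.

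Histone genes outside the clusters, which encode variant histones, were read in the same fits. How their mRNAs end was not examined. Without the block none of the 11 tested of 12 listed was called, and by line 4 (control), 1 (KO1) and 2 (KO2) reached an unadjusted p under 0.05. With the block 8, 3 and 4 fell, against 16.4%, 13.8% and 14.4% of all genes called lower. None rose, where 16.1%, 13.9% and 12.7% of all genes were called higher. The median log2 fold change was -1.17, -0.37 and -0.54. H2AFX, the H2A variant phosphorylated at DNA breaks, had an FPKM of 91.7 and 78.8, 101 and 58.9, and 118 and 84.3 in vehicle. It had 25.2 and 22.8, 25.7 and 19.0, and 24.2 and 21.2 in bortezomib. The treatments did not overlap, and H2AFX fell, with log2 fold changes of -1.78, -1.75 and -2.09 (SE 0.16; limma adjusted p 0.000177, 0.000233 and 9.8e-05 with the block). H2AFZ fell, with log2 fold changes of -1.497, -0.85 and -1.08, and H2AFJ fell too (-0.94, -0.96 and -1.19), both in the same fit (limma adjusted p at most 0.0193). CENPA, the centromeric H3 variant, fell in the control line and KO2 (-1.78 and -0.95), and H1F0, a replacement linker histone, in the control line (-1.198).

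Among 20 DNA replication genes, all tested, none was called without the block (3, 4 and 4 at an unadjusted p under 0.05), and 10, 10 and 11 fell with it while none rose, against 16.4%, 13.8% and 14.4% of all genes called lower. Their median log2 fold change was -0.61, -0.57 and -0.62. FEN1, a flap nuclease, fell, with log2 fold changes of -1.52, -1.49 and -1.68, and so did CCNA2, the S-phase cyclin (-1.96, -1.35 and -1.77; limma adjusted p at most 0.00228 with the block). RRM2, a ribonucleotide reductase subunit, fell, with log2 fold changes of -1.201, -1.46 and -1.39, and the replicative helicase subunits MCM4 and MCM6 fell in each line too.

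The factors that make and degrade histone mRNA did not move one way. None of 22 tested of 23 listed was called without the block (2, 3 and 1 at an unadjusted p under 0.05). With the block 2 rose and 3 fell in the control line, 2 rose and 3 fell in KO1, and 2 rose and none fell in KO2. These shares of the 22 lie below those of all genes called in the same direction (lower 16.4%, 13.8% and 14.4%, higher 16.1%, 13.9% and 12.7%). ZNF473, a zinc finger protein of the U7 processing complex, rose in each line (1.03, 0.89 and 0.95; limma adjusted p at most 0.00212). CDK2 and its cyclin CCNE1, which act on the histone gene coactivator NPAT, fell in the control line (-0.81 and -0.49) and in KO1 (-0.92 and -0.66). CASP8AP2 fell in KO1 (-0.61), and ZCCHC6, a uridylyl transferase, rose in the control line (0.49). SLBP, named here because it binds the stem-loops printed above and so outside the naming rule, rose in KO1 by 0.71 (SE 0.19; limma adjusted p 0.0223 with the block). Of 13 tested histone chaperones, none was called without the block (1, 0 and 1 at an unadjusted p under 0.05). With it ASF1B, which delivers H3 and H4 to new chromatin, fell in each line (-1.71, -0.9997 and -1.46), and NAP1L1 rose in the control line (0.55).

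**Figure D5:**
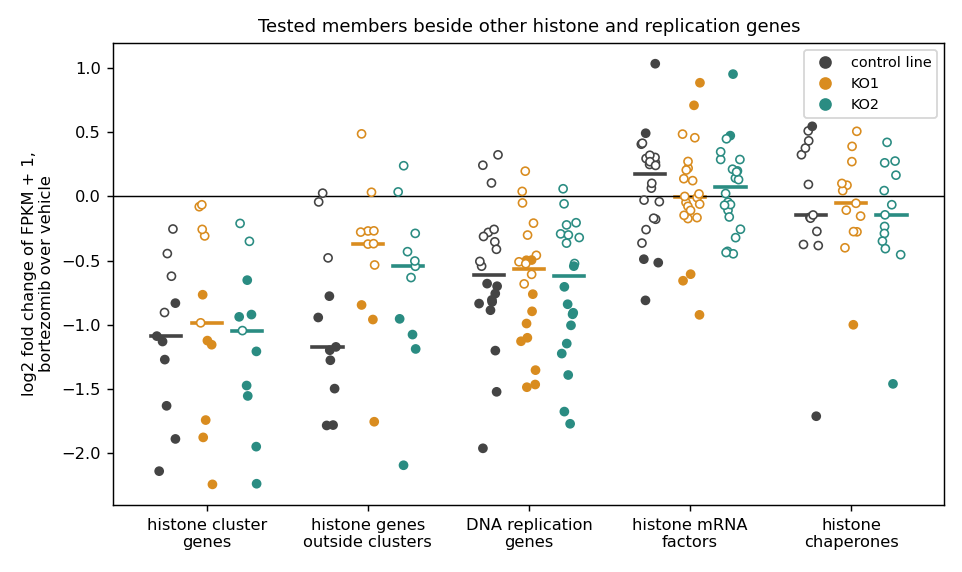
Log2 fold change of FPKM + 1, bortezomib over vehicle, in the control line, KO1 and KO2, for the tested histone cluster genes and for 4 other lists, from the fit with the replicate block. Points are genes, filled where called, and horizontal lines are medians. The medians of the cluster genes are -1.09, -0.98 and -1.05 and those of the DNA replication genes -0.61, -0.57 and -0.62. Each cluster median is the value of a member that passed the filter through vehicle, which fixes part of its direction.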

How the data were processed

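RNA sequencing libraries of 12 samples, grouped by their labels, were analysed from 1 deposited table of the authors' FPKM. Per the submitters' processing notes CASAVA, STAR 2.5, HTSeq 0.6.1, DESeq2 and the build hg19 were used, with no role given. The deposited positions match GENCODE release 29 (GRCh38) for 68 of the 71 histone genes, so coordinates are given as deposited and read as GRCh38. Strand setting and the handling of reads that fit several genes are not given in the sources used here. FPKM times gene length gave whole reads for 100% of values (within 0.01 of a read), which gives the depths.

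The members, gene lists and tests were chosen with earlier results of these data known. Of 58676 genes, 12194 reached an average FPKM of 1 across libraries and were fitted on log2(FPKM + 1) by limma 3.58.1 (R 4.3.3; eBayes with a trend, 1 mean per group, no replicate term). This scale understates the change of low genes. P-values were adjusted by Benjamini-Hochberg over all genes tested (threshold 0.05), and the fit was tested on simulated data. With 2 libraries a group no exact permutation test was used.

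The replicate block took the title suffix (none, R1 or R2) as a term. The labels do not say what a suffix marks, so its pairing rests on the data: the R2 minus partner differences of the 6 groups were correlated across genes in all 15 pairs of groups (r 0.70 to 0.89, median 0.81). The unsuffixed libraries occur only in control groups.

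Values in every library are given for the 12 members with the highest mean FPKM and any member called with or without the block, and up to 5 called genes are named per list. Members without overlap of treatments, HIST4H4, SLBP and marker genes were named after their values were seen. Alternatives were a pseudocount of 0.1, no filter, FPKM rescaled to a common sum, leaving out mitochondrial genes, 2 forms of the block, voom on recovered reads, and leaving out each library. After seeing the data 3 combinations with the block were added. Stem-loops were searched in GENCODE 29 transcripts and motifs in RefSeq promoters (GRCh38.p14, 61 of 71 matched by gene ID and current symbol) with Python 3.11.15 and pandas 2.3.3. At 3 reads, a gene of 1000 bases has an FPKM of 0.126 to 0.227, depending on the library. Intervals cover counting error only.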

Additional observations from a re-analysis of the deposited data

How the results depend on the processing

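The number of histone cluster genes called depended on the replicate block and, with the block, also on the filter and the scaling. Without the block it was 0 in every comparison with a pseudocount of 0.1, no filter, rescaled FPKM, voom and with any 1 library left out (range 0 to 0), and leaving out mitochondrial genes gave 1 in KO2. With the block by title suffix 7 (control line), 6 (KO1) and 8 (KO2) were called for bortezomib, with the unsuffixed libraries on the level of R1 also 7, 6 and 8, and with voom and the block 7, 6 and 7. With the block, rescaled FPKM gave 11, 8 and 10 of 24 tested, leaving out mitochondrial genes 8, 7 and 9 of 12, and no filter 4, 5 and 2 of 62. Over all genes, rescaled FPKM with the block called 1950, 1528 and 1419 of 16081 lower. Leaving out mitochondrial genes called 1913, 1803 and 1782 of 12553 lower, and no filter 1163, 934 and 913 of 32192. For the knockouts in vehicle and for the interaction the count of histone cluster genes called was 0 throughout.

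Of 33 fold changes for bortezomib, 5 changed sign, each with 1 library left out and none past the threshold in that setting. Over the libraries left out in turn, HIST2H2AC ranged from -0.95 to 0.0565 in the control line and from -0.44 to 0.31 in KO1, HIST3H2A in KO1 from -0.61 to 0.0933, HIST1H3B in KO1 from -0.25 to 0.0931 and HIST1H3E in KO2 from -0.49 to 0.0718. The libraries were, in that order, R2 of control bortezomib, R1 of KO1 vehicle or R2 of KO1 bortezomib, R2 of KO1 bortezomib, R1 of KO1 bortezomib and R1 of KO2 bortezomib. Named differences of the knockouts in vehicle also changed sign, with HIST1H1C from -1.41 to 0.53 and HIST1H2BD from -0.31 to 1.53 in KO1 and HIST1H4I from -0.35 to 0.92 in KO2. The interaction of HIST1H2BK ranged from -1.36 to 0.33. Moves without a change of sign were also wide. Leaving out 1 library moved HIST1H1C in KO1 between -2.09 and -0.15 and HIST1H2BK in the control line between -1.97 and -0.29. Depth limits the 60 untested genes, of which 9 had no read, and the cause of the changes of sign was not tested.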
